A study of Mus musculus with 45 samples.

Results

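Genes that build, regulate or use actin filaments were followed through single mouse oocytes. They are Fmn2, Spire1, Spire2, Wasf2, Tiam1, Capza1, Daam1, Cdc42bpb and Cfl1, 9 of the 55357 gene rows of the read count table. The list was put together with results of these data known. Tiam1, Wasf2 and Capza1 had small p-values between aged and young chimeric follicle oocytes, and Cdc42bpb and Daam1 between both kinds of aged oocyte. For Fmn2, Spire1, Spire2 and Cfl1 the values behind the choice are not known, so all 9 are described, and not tested, in comparisons that hold those libraries or share some with them.

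The oocytes came from reconstituted chimeric follicles, in which a transplanted oocyte is cultured inside a follicle whose own oocyte was removed, and from control oocytes. The study asked how the age of the somatic cells around an oocyte bears on the oocyte. The group YY held young oocytes in young somatic cells (n = 11), AY aged oocytes in young somatic cells (n = 6) and AA aged oocytes in aged somatic cells (n = 12). Controls were oocytes of young mice with in vitro culture (n = 8) and without it (in vivo young, n = 8). All 3 chimeric groups share transplantation and culture, and the design has no young oocyte in aged somatic cells. The sources used here do not name the age in months, the strain, the animal or the meiotic stage of an oocyte. A p-value below therefore measures the spread between libraries, part of which may be technical or shared by oocytes of 1 animal.

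Oocyte meiosis is asymmetric: the spindle forms near the middle of the cell and moves to the cortex, where a small polar body is cut off. In mouse oocytes this movement depends on an actin network in the cytoplasm. Formin-2, encoded by Fmn2, and the Spire proteins nucleate unbranched filaments of that network together. The Arp2/3 complex makes branched filaments at the cortex. It is switched on by WAVE proteins, of which Wasf2 encodes one, downstream of the GTPase Rac. Tiam1 encodes an exchange factor that loads Rac with GTP. Capza1 encodes a subunit of capping protein, which stops growth at a filament's barbed end, Cfl1 encodes cofilin, which severs filaments, Daam1 encodes a formin, and Cdc42bpb encodes the kinase MRCK beta, an effector of the GTPase Cdc42.

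Total counts per library ranged from 418703 to 2201980, and 12785 to 16900 genes were detected. Levels below are CPM, read counts scaled to a common library total, after TMM scaling over all 45 libraries, as mean ± SD over libraries. All 10 oocyte markers were detected in every group. Their unscaled sum was 24312 ± 2720 CPM in in vivo young and 23925 ± 2448 in in vitro young oocytes. It was 18607 ± 1798 in YY, 21696 ± 1803 in AY and 19426.5 ± 2062 in AA. Summed markers of theca and stroma reached at most 9.74 unscaled CPM in any library, those of immune cells 31.8 and those of endothelium and blood 126. The last averaged 60.0 ± 19.8 in YY, 51.9 ± 16.0 in AY and 73.6 ± 19.3 in AA. The 14 granulosa markers summed to 715 ± 95.8 unscaled CPM in YY (n = 11), 1183 ± 254 in AY (n = 6) and 985 ± 168 in AA (n = 12), mostly Serpine2. Inha, which encodes the inhibin alpha subunit of granulosa cells, was at 6.71 ± 6.54 in YY, 44.2 ± 32 in AY and 47.7 ± 34.5 in AA, while Amh and Ptx3 were at 0 in all 45 libraries. The granulosa markers did not all move together. By mean, Inhba, Inhbb, Fshr, Hsd17b1, Fst and Serpine2 were also higher in AY and AA than in YY. Nr5a2 was lower, at 44.99 in YY, 32.004 in AY and 36.45 in AA, and Kitl was slightly lower. Cyp19a1 was at 17.01 in YY, 15.75 in AY and 20.81 in AA. The number of granulosa markers detected was 10 of 14 in YY, 11 in AY and 12 in AA. The library numbers of the groups do not overlap, so group and library series cannot be told apart. YY spans 2 numbering series, S198 to S202 (5 libraries) and S225 to S231 (6 libraries). The numbers of in vivo young, in vitro young and AY libraries have gaps too, and those groups were not split by them. Libraries also fall into sets that share the same side of 11 genes read at either a high or a near-zero level, here called patterns: 10 patterns over 45 libraries, with 9 and 3 libraries in AA, 4 and 2 in AY, and 4, 3, 2 and 2 in YY. In YY the patterns nest in the series: those of 3 and 2 libraries (replicates 1 to 5) make up S198 to S202, and the others S225 to S231, so series and pattern are not separate there.

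Promoter windows are shown for Wasf2 and Tiam1, whose AA libraries all lay below their YY libraries, and for Capza1, which stood in the opposite direction. Each holds the 250 bases before an annotated start in the RefSeq table (GRCm38.p6, an older build than the mm39 of the counts), 5′ to 3′ on the gene's strand. Capitals mark matches, on either strand, to 5 motifs: the box CCAAT, the GC box core GGGCGG, the E-box written CACGTG, the element TATAAA of a TATA box, and the CArG box. The first letters are farthest from the start.
Wasf2, chr4:133130383-133130632, plus strand: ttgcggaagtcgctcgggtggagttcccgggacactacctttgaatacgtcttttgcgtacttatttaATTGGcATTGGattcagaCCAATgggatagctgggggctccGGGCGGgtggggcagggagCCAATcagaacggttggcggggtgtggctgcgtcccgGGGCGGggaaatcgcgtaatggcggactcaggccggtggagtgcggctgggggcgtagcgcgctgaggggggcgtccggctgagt
Tiam1, chr16:89818353-89818602, minus strand: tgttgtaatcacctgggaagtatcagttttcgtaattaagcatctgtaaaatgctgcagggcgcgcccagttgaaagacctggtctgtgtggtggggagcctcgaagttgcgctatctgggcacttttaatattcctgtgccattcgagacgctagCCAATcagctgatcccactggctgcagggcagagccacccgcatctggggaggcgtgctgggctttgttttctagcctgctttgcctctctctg
Tiam1, second start, chr16:89974700-89974949, minus strand: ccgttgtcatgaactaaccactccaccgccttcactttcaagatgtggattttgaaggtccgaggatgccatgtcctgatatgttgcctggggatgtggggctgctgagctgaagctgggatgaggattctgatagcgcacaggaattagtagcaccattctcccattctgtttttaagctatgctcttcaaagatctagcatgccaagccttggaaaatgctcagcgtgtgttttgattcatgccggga
Capza1, chr3:104864506-104864755, minus strand: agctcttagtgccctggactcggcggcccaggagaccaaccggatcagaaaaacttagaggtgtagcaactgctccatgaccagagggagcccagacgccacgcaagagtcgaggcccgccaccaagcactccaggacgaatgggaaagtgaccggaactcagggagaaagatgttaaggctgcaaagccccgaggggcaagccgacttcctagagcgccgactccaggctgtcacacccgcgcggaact

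The Wasf2 window held 4 CCAAT matches, from 117 to 177 bases before the start, and 2 of GGGCGG. The first Tiam1 window held 1 CCAAT match, 89 bases before the start. Neither the second Tiam1 window nor that of Capza1 held any of the 5 motifs. CCAAT was present in 33.8% of 32851 windows of the same length over all genes, GGGCGG in 32.7%, TATAAA in 12.4%, CACGTG in 6.02% and a CArG box in 1.47%. Such matches are letters in a window and no evidence of binding. Of the 9 genes, 8 had a window used here.

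Fmn2 (chromosome 1, 174329391 to 174650296) was steady. Its group means lay between 131.6 CPM in AY and 144 in in vivo young oocytes, and no gap between neighbouring groups exceeded the larger SD. Single libraries ranged from 103 to 197 CPM, with both ends in YY. All 5 groups overlapped.

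Spire1 (chromosome 18, 67621279 to 67743861) was the more abundant of the pair of Spire genes. The AA libraries ran from 236 through a median of 380.0 to 444 CPM. YY ran from 181 through 251 to 386, AY from 196 through 255.8 to 325, in vitro young from 212 through 287 to 342 and in vivo young from 240.9 through 324 to 399. AA was highest by mean (363 ± 67.6, n = 12), but the next group, in vivo young (318 ± 49.9, n = 8), was closer than the larger SD, and all groups overlapped. The libraries of AY lay below the AA median in 6 of 6 cases. Spire2 (chromosome 8, 124059452 to 124096255) had only 1 to 20 counts per library and did not pass the filter on low counts. Per kilobase of exon, Spire1 stood at 33.4 to 46.7 CPM in the group means and Spire2 at 2.49 to 2.78. Spire1 exceeded Spire2 in every group. Fmn2 stood at 16.5 to 18.1 CPM per kilobase.

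**Figure D1:**
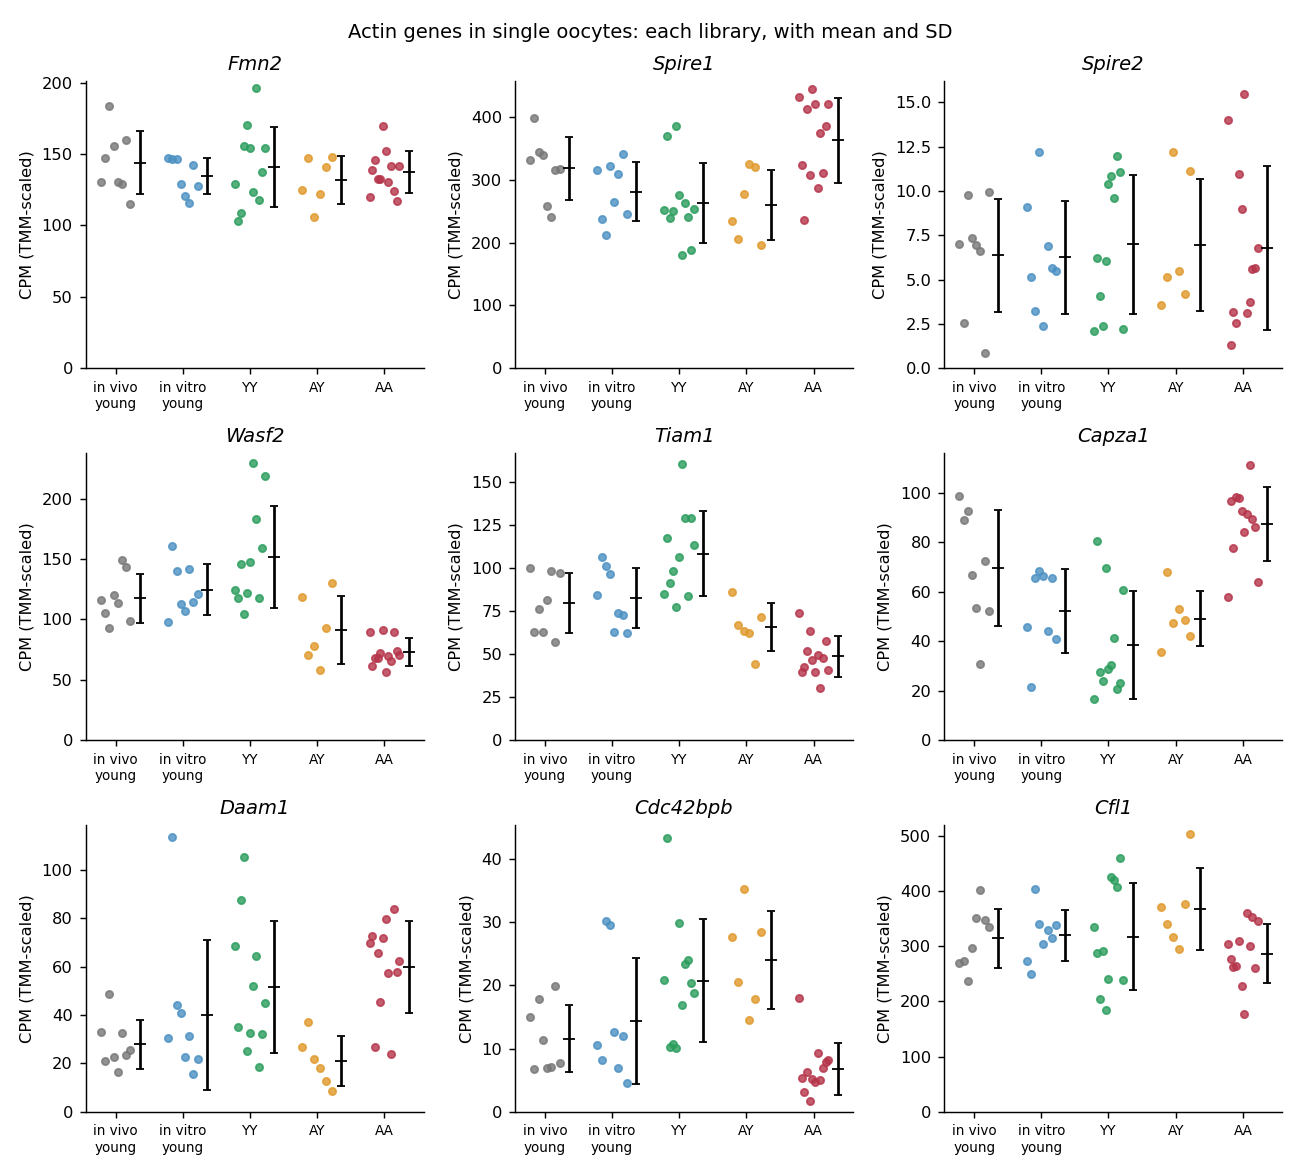
Levels of the 9 actin genes in TMM-scaled CPM (linear axes from 0), 1 point per oocyte, with the group mean and SD as a bar beside the points. Wasf2 and Tiam1 are lowest in AA and highest in YY without overlap of those groups, Capza1 is highest in AA by mean, and Fmn2 is level across the 5 groups.

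Wasf2 (chromosome 4, 132857816 to 132927068), which encodes the WAVE protein that switches on Arp2/3, separated AA from all young groups. Its 12 AA libraries ran from 56.5 through a median of 70.3 to 91.2 CPM. The 11 YY libraries ran from 104 through 145 to 229.4, the in vitro young from 97.9 through 118 to 161 and the in vivo young from 92.6 through 115 to 148.8. Every AA library was therefore below every library of young oocytes. AY ran from 58.4 through 85.3 to 129.7 and overlapped all groups. In order, the means ran from YY (152 ± 42.2) through in vitro young (124 ± 21.1), in vivo young (117 ± 20.03) and AY (91.2 ± 27.9) to AA (72.9 ± 11.4), with each step within the larger SD of its neighbours.

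Tiam1 (chromosome 16, 89583999 to 89940658), the Rac exchange factor, had the same order of groups. AA ran from 30.1 through 46.9 to 73.9 CPM and YY from 77.5 through 106 to 161, with no overlap. AY ran from 44.2 through 65.0 to 86.3, in vitro young from 62.0 through 79.1 to 106 and in vivo young from 57.0 through 78.8 to 99.8. Unlike in Wasf2, the AA libraries overlapped both control groups. The step from YY (108 ± 24.9) to in vitro young (82.5 ± 17.3) and that from AY (65.7 ± 13.7) to AA (48.6 ± 11.9) were larger than the larger SD. The 2 control groups and AY lay within their spread of each other in order.

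Capza1 (chromosome 3, 104730095 to 104771822), the capping protein subunit, stood the other way. AA ran from 57.9 through 90.5 to 111 CPM, AY from 35.6 through 47.9 to 68.0 and YY from 16.6 through 28.5 to 80.5. In vitro young ran from 21.5 through 55.6 to 68.2 and in vivo young from 30.7 through 69.7 to 98.8. AA overlapped every other group, and its 12 libraries all lay above the YY median. The protein-coding gene St7l overlaps Capza1 from 104771321 to 104771822 and drew 15.3% as many counts. How reads in that stretch were assigned is unknown here.

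The pseudogene Capza1-ps1, a copy on another chromosome with its own row, drew about as many reads as Capza1, with 10 to 107 counts per library. Its level was 54.1 ± 31.8 CPM in YY, 64.7 ± 17 in AY and 57.9 ± 15 in AA, and its log2 difference between AA and YY was 0.10 ± 0.25 (SE). The treatment of reads shared by near copies is unknown here, so the split between the rows is uncertain. The sum of both rows was 92.5 ± 38.5 CPM in YY, 114 ± 25.2 in AY and 145 ± 22.5 in AA. It was 95.7 ± 25.6 in in vitro young and 126 ± 36.7 in in vivo young oocytes. AA was thus highest by the mean of the sum too, at a smaller ratio to YY than Capza1 alone. In vivo young libraries (54.8 to 177.0) overlapped those of AA (107.9 to 177.3).

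Cfl1 (chromosome 19, 5540483 to 5545230), cofilin, was the most abundant member per length, at 101 to 129.1 CPM per kilobase in the group means. It ran from 178 to 504 CPM over all libraries, with overlapping groups. Its mean was highest in AY (367 ± 73.9) and lowest in AA (287 ± 53.6), and no neighbouring groups differed beyond the larger SD.

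Daam1 (chromosome 12, 71877852 to 72039108), the formin, was lowest in AY. AY ran from 8.65 through 20.1 to 37.2 CPM, AA from 23.8 through 64.1 to 83.8 and YY from 18.5 through 45.1 to 106. In vitro young ran from 15.5 through 30.8 to 114 and in vivo young from 16.3 through 24.4 to 48.7. The groups overlapped, and no step in the order exceeded the larger SD.

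Cdc42bpb (chromosome 12, 111259410 to 111344153), the Cdc42 effector kinase, was the least abundant member that passed the filter. AA ran from 1.69 through 5.80 to 17.98 CPM, AY from 14.6 through 24.1 to 35.3 and YY from 10.1 through 20.3 to 43.3. In vitro young ran from 4.56 through 11.3 to 30.1 and in vivo young from 6.73 through 9.58 to 19.9. AA held only 2 to 9 counts per library. At the mean count, the counting error was 44.7% of that mean in AA, against 25.1% in YY. A long non-coding RNA row, A230087F16Rik, overlaps this gene and drew 29.1% as many counts. Whether the counting used strand is unknown here, so their reads may not be told apart.

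Between AA and YY, the most different members were Cdc42bpb, at a log2 difference of −1.65 ± 0.28 (SE, edgeR quasi-likelihood fit over 8533 genes), Capza1 at 1.19 ± 0.19, Tiam1 at −1.18 ± 0.14 and Wasf2 at −1.08 ± 0.13. Spire1 differed by 0.45 ± 0.12. Daam1 (0.21 ± 0.25), Cfl1 (−0.17 ± 0.14) and Fmn2 (−0.06 ± 0.10) differed by less. Of the 8 genes that passed the filter, 2 were called higher and 3 lower at an adjusted p under 0.05, where 27.5% of all genes tested were called (12.8% higher and 14.7% lower). The ranges of 2 members did not overlap, against 0.598% of all genes. This comparison chose members, so nothing is read from these counts. Leaving out any 1 library of AA or YY changed none of the 5 calls. With pattern as a random block 4 were called, without Spire1. These fits hold the libraries that chose members, so a kept call is no independent support.

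The difference between the YY series bore on several members. Against S198 to S202 alone, AA stood at −0.77 for Wasf2, −0.96 for Tiam1, 1.02 for Capza1 and −1.44 for Cdc42bpb. Against S225 to S231 alone, the same values were −1.30, −1.34, 1.34 and −1.80. Spire1 was at 0.27 and 0.61, and not called against the first series. Daam1 was at −0.13 and 0.54, so its sign depended on the series. Cfl1 was at 0.14 and −0.38, so its sign did too, and it was called lower against the second series alone. Within YY, Wasf2 averaged 123 ± 14.9 CPM in the first series (n = 5) and 176 ± 43.0 in the second (n = 6), and AA was below both. When the libraries of each pattern were summed to 1 sample, a choice made after seeing the data, 0 members were called by edgeR, and 4 had an unadjusted p under 0.05.

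**Figure D2:**
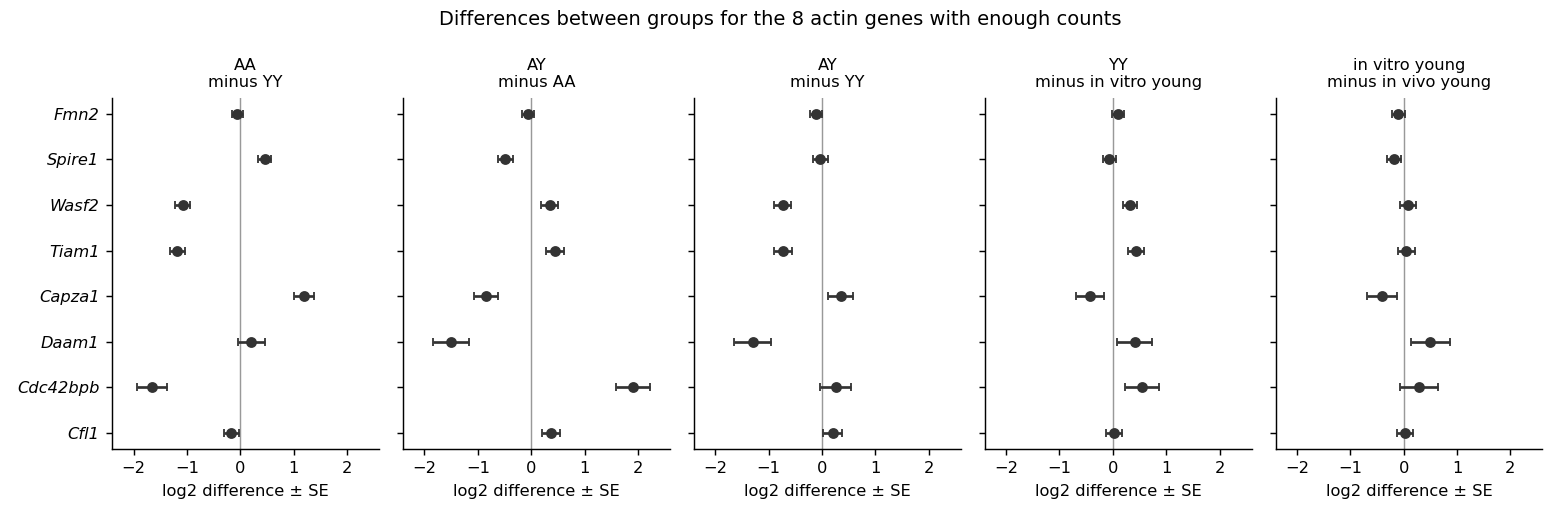
Log2 differences with their SE for the 8 members that passed the filter, in each of the 5 comparisons. Wasf2, Tiam1 and Cdc42bpb are lower and Capza1 higher in AA than in YY, and all 8 lie between −0.41 and 0.50 for in vitro minus in vivo young oocytes.

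Between AY and AA, both aged oocytes, Cdc42bpb stood 1.91 ± 0.32 higher in AY on the log2 scale, with 6 of 6 AY libraries above the AA median. Daam1 was lower by −1.50 ± 0.34, Capza1 by −0.84 ± 0.22 and Spire1 by −0.48 ± 0.14, each with all 6 AY libraries below the AA median. Wasf2 (0.35 ± 0.16), Tiam1 (0.45 ± 0.17) and Cfl1 (0.37 ± 0.17) were higher in AY without being called, and Fmn2 was at −0.06 ± 0.12. Among the members 1 was called higher and 3 lower, and among all genes 6.59% were called (3.52% higher and 3.07% lower). With the replicate number as a block 5 members were called, with Cfl1 called higher as well. With pattern as a random block 2 were called, Cdc42bpb and Capza1. With the libraries of each pattern summed edgeR called 0, with 2 at an unadjusted p under 0.05. The list was chosen in part from this comparison too, so nothing is read from these counts or from calls kept in other fits. Without AY replicate 1, or without AY replicate 6, Capza1 and Spire1 were no longer called, which left 2 members. Spire1 lost its call in 8 of 18 fits that left out 1 library (AY replicates 1, 2 and 6 and AA replicates 1, 4, 6, 7 and 12), and Capza1 in 2.

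Against YY, AY was lower in Daam1 (−1.30 ± 0.35), Wasf2 (−0.73 ± 0.16) and Tiam1 (−0.73 ± 0.17), the 3 members called, where 1.62% of all genes were called (0.902% lower). With pattern as a random block 0 members were called by limma voom, with 3 at an unadjusted p under 0.05, and against S198 to S202 alone only Daam1 was. With summed libraries edgeR called 0, with 2 at an unadjusted p under 0.05. All AY and YY libraries took part in the comparisons that chose members, so nothing is read from these counts. AY and AA are both compared with the same YY libraries and share them, and so the 2 sets of values are not independent. Relative to YY, Wasf2 stood at −0.73 in AY and −1.08 in AA, Tiam1 at −0.73 and −1.18, Capza1 at 0.35 and 1.19, Cdc42bpb at 0.26 and −1.65, and Daam1 at −1.30 and 0.21. Daam1 lost its call in 11 of 17 fits that left out 1 library, which were those without AY replicates 1, 3, 4, 5 or 6 or YY replicates 1, 3, 4, 7, 8 or 11, and in 6 of 12 other alternatives. Tiam1 lost its call only without AY replicate 5 among the 17, and Wasf2 in none of them.

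In YY against in vitro young oocytes, no member was called by edgeR, where 2.48% of all genes were (1.7% lower), and 2 members had an unadjusted p under 0.05. The values were 0.55 ± 0.32 for Cdc42bpb, 0.43 ± 0.15 for Tiam1, 0.41 ± 0.33 for Daam1, 0.32 ± 0.14 for Wasf2, −0.43 ± 0.26 for Capza1 and between −0.07 and 0.10 for the other 3. With YY libraries S225 to S231 alone, Tiam1 (0.59) and Wasf2 (0.54) were called, and with voom quality weights Tiam1 was (0.47). The YY libraries took part in choosing members, so nothing is read from these calls.

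In vitro and in vivo young oocytes share no library with AA against YY or AY against AA, from which members were chosen. Here the members were tested. The fit also held the YY libraries, which entered its filter, scaling and estimate of spread. The p-values and intervals below are therefore not wholly independent of the choice. None was called (edgeR quasi-likelihood test, Benjamini-Hochberg adjusted over 8749 genes, adjusted p from 0.68 to 0.98), and 0 of 8 had an unadjusted p under 0.05, where 0.137% of all genes were called (0.0114% lower). DESeq2 and limma voom also called 0. The 95% intervals of the log2 difference were −0.35 to 0.15 for Fmn2, −0.45 to 0.09 for Spire1, −0.22 to 0.38 for Wasf2 and −0.27 to 0.37 for Tiam1. They were wider for Capza1 (−0.96 to 0.15), Cdc42bpb (−0.43 to 1.01) and Daam1 (−0.24 to 1.24). For Cfl1 the interval was −0.29 to 0.34. A log2 difference of 1 in either direction thus lay outside the interval of 6 members, and inside it for Daam1 and Cdc42bpb.

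Daam1 was the only member whose 2 AA patterns did not overlap, with 26.9, 45.6 and 23.8 CPM in AA replicates 3, 5 and 9 and 57.5 to 83.8 in the other 9 libraries, where 3.83% of all genes did not overlap. In YY, Daam1 was highest in replicates 1, 3 and 4, at 68.5, 87.5 and 106 CPM. Capza1 was highest in YY replicates 2 and 5, at 80.5 and 69.4 CPM, and Spire1 in those libraries too, at 369 and 386. In AY, Wasf2 was at 118 and 129.7 CPM in replicates 1 and 6 and at 58.4 to 92.6 in the other 4. What sets the patterns apart is not given in the labels.

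**Figure D3:**
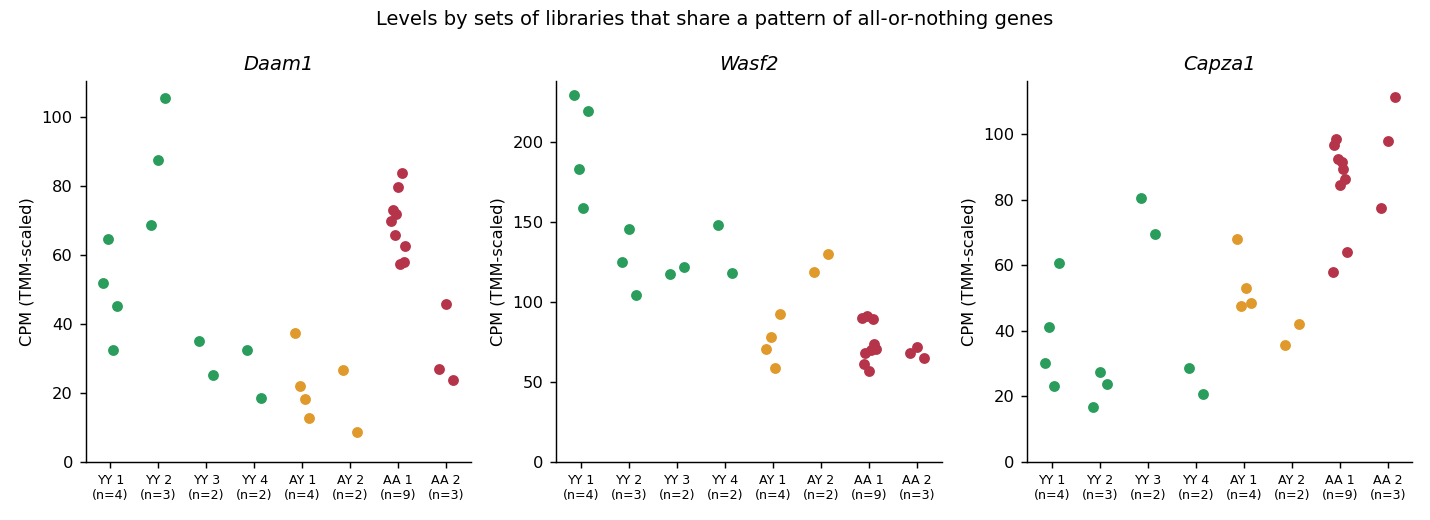
Levels of Daam1, Wasf2 and Capza1 in TMM-scaled CPM in AA, AY and YY, 1 point per oocyte, with libraries split by the pattern of 11 genes that are read at either a high or a near-zero level. Daam1 in the 3 libraries of the second AA pattern lies below the other 9 AA libraries.

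Across the 45 libraries, Wasf2 and Tiam1 were the most alike pair of members, with a Pearson r of 0.80 over log2 CPM and 0.44 after group means were removed. Spire1 went with Capza1 (0.63, and 0.42 within groups) and against Cfl1 (−0.55, and −0.53 within groups) and Wasf2 (−0.53, and −0.38 within groups). Fmn2 was unlike all others, with every r between −0.18 and 0.15. The points share group, library series and depth, so these values are descriptions. Total count had an r of −0.34 with Cdc42bpb within groups and of −0.12 to 0.14 with the other 8. The summed granulosa markers had an r of −0.22 with Wasf2, 0.21 with Spire1 and −0.11 to 0.16 with the rest within groups, and their part in the differences between groups was not tested.

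**Figure D4:**
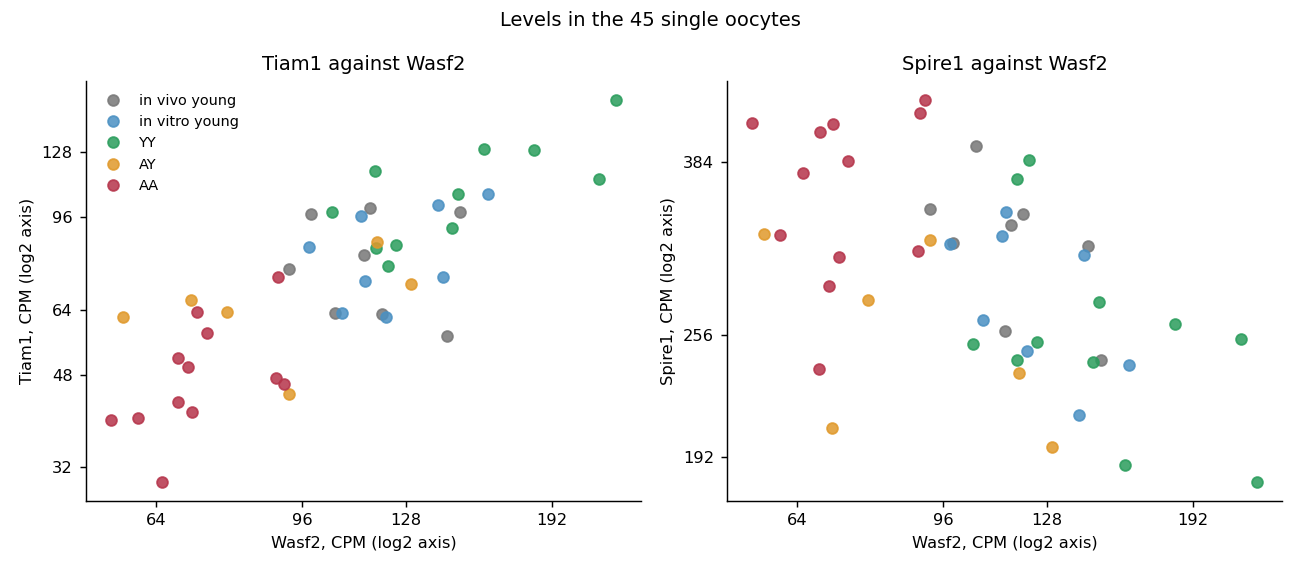
Tiam1 and Spire1 against Wasf2 in CPM on log2 axes, 1 point per oocyte, coloured by group. Tiam1 is high where Wasf2 is high (r of 0.80) and Spire1 tends to be low there (r of −0.53), with AA oocytes at the low end of Wasf2.

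Among 8060 genes compared over the 45 libraries, the genes most like Wasf2 were Ice1 (r of 0.86), Jag1 (0.84) and Prickle1 (0.83), and those most like Tiam1 were Prickle1 (0.84), Stk35 (0.82) and Ice1 (0.82). Capza1 was most like Nfya (0.78), Ska3 (0.75) and Tex10 (0.74), and Spire1 most like Dync1i2 (0.77), Iars (0.77) and Gk (0.76). The highest value for Cdc42bpb was 0.74, with Dtx2, that for Cfl1 was 0.66, with Scap, and that for Daam1 was 0.54, with Anxa5 and Gnat2. That for Spire2 was 0.53, with Whamm, and that for Fmn2 was 0.52, with Plekha8. After group means were removed, r was 0.73 for Wasf2 with Ice1, 0.61 for Tiam1 with Prickle1 and 0.56 for Capza1 with Nfya. It was 0.67 for Spire1 with Dync1i2, 0.47 for Cdc42bpb with Dtx2 and 0.62 for Cfl1 with Scap. For Daam1 it was 0.34 with Anxa5 and 0.46 with Gnat2, for Spire2 with Whamm 0.55 and for Fmn2 with Plekha8 0.57.

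The wider actin machinery was read from 11 lists of genes that do not hold the members. Of these, 82 genes passed the filter among chimeric follicle oocytes. The lists too were chosen with earlier results of these data known, so their shares of called genes are descriptions and no independent evidence. In AA against YY, 26 of these fell and 8 rose, together 41.5% where 27.5% of all genes were called, with a median log2 difference of −0.14 against −0.01 for all genes. With pattern as a random block 12 of the 34 were called, 8 lower and 4 higher, and against S198 to S202 alone 3 were: Arhgdia, Diaph3 and Fhod3. Among other formins, all 4 tested genes were called: Diaph1 (−1.14 ± 0.21, adjusted p = 7.2e-05), Fhod3 (−0.54 ± 0.12, adjusted p = 0.00085) and Fmnl3 fell, and Diaph3 rose (0.46 ± 0.10, adjusted p = 0.00095; edgeR with Benjamini-Hochberg adjustment throughout). Fmnl3 was not called with the random block, and neither Fmnl3 nor Diaph1 against S198 to S202 alone. Diaph1 was at 21.3 ± 8.99 CPM in AA (n = 12) and 45.2 ± 16.4 in YY (n = 11). Of 10 tested genes of the WAVE and WASP complexes, which act on Arp2/3, 5 fell and 1 rose: Abi1, a WAVE complex subunit, fell by 0.48 on the log2 scale (SE 0.12, adjusted p = 0.0015) and Cyfip1, another subunit, rose by 0.68 (SE 0.18, adjusted p = 0.0040). Of 8 tested Arp2/3 subunits, 2 fell and 0 rose, and 3 had an unadjusted p under 0.05.

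Among regulators and effectors of small GTPases, calls were in both directions. Of 9 tested regulators 3 fell, among them Arhgdia, which holds GTPases inactive in the cytosol, by 0.61 (SE 0.14, adjusted p = 0.00070). Of 10 tested effectors, 5 fell, among them the kinase Rock1 (−0.41 ± 0.09, adjusted p = 0.00085), and 2 rose. The 2 were Cdc42se2 (0.27 ± 0.08, adjusted p = 0.012) and Cdc42bpa (0.33 ± 0.11, adjusted p = 0.018), which encodes MRCK alpha, the closest relative of the product of Cdc42bpb. With the random block their adjusted p was 0.075 and 0.053. Of 4 kinases of the Mos pathway, which is needed for spindle movement in mouse oocytes, 3 fell. Mapk3, which encodes the kinase ERK1, was at 87.8 ± 22.6 CPM in AA and 167 ± 49.8 in YY (−0.94 ± 0.17, adjusted p = 0.00015).

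Of 9 tested capping genes 2 fell and 1 rose, of 10 turnover genes 3 fell and 1 rose, and of 8 filament and crosslinking genes 0 fell and 1 rose. That 1 was Rdx, radixin, which ties filaments to the membrane (0.22 ± 0.07, adjusted p = 0.023, and 0.051 without YY replicate 7). None of 3 small GTPase genes and 7 myosin and vesicle genes were called by edgeR, with 1 and 0 at an unadjusted p under 0.05. With the libraries of each pattern summed, edgeR called 0 genes of the 11 lists, and 18 had an unadjusted p under 0.05.

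**Figure D5:**
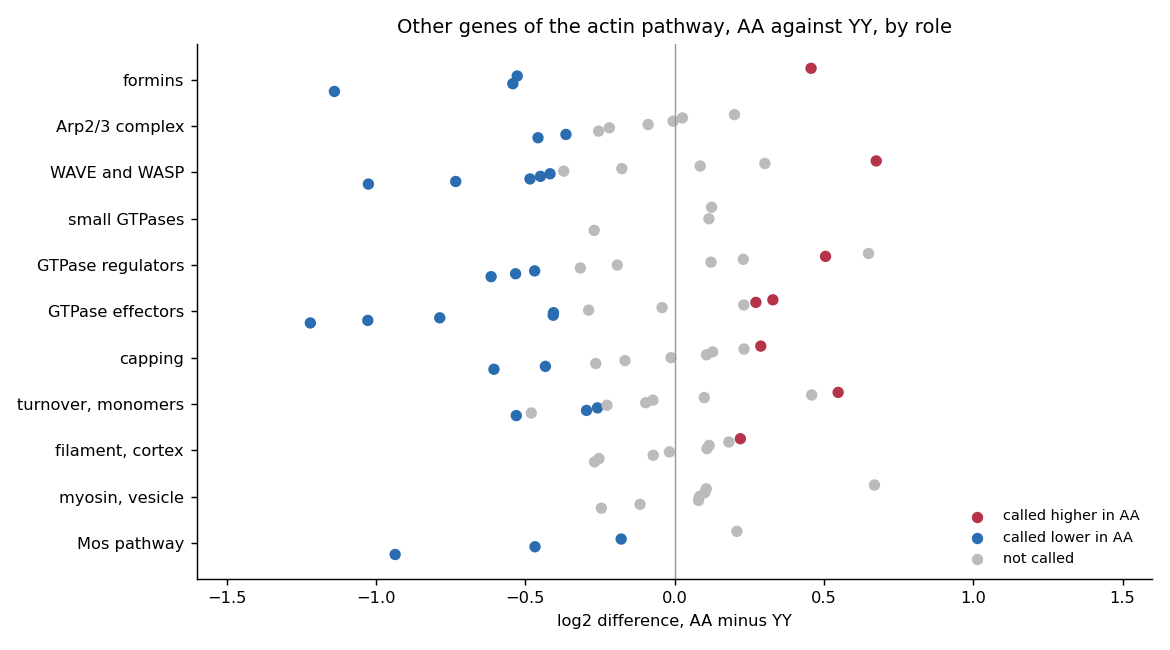
Log2 differences between AA and YY of the tested genes of the 11 actin lists, 1 point per gene by list, with called genes marked. Of the 82 genes, 26 are called lower and 8 higher, and all 4 formins are called.

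In AY against AA, 4 of the 82 genes were called (4.88%, where 6.59% of all genes were), and 19 had an unadjusted p under 0.05. Mapk3 rose by 0.92 (SE 0.20, adjusted p = 0.0061) to 166 ± 53.4 CPM in AY (n = 6). Tmsb10, thymosin beta 10, which binds actin monomers, rose by 0.54 (SE 0.15, adjusted p = 0.022), but its adjusted p was 0.056 without AY replicate 1 and 0.073 without AY replicate 6. Cdc42bpa fell by 0.57 (SE 0.13, adjusted p = 0.0075), where Cdc42bpb stood higher. Rdx fell by 0.38 (SE 0.09, adjusted p = 0.0090), with an adjusted p of 0.058 without AY replicate 1. Without that library, 2 genes of the list were called. With a random block for pattern, 2 were called, Cdc42bpa and Rdx, while Mapk3 had an adjusted p of 0.082 and Tmsb10 of 0.14, and with summed libraries 0 were, with 7 at an unadjusted p under 0.05.

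In AY against YY, 1 gene of the list was called (1.22%, where 1.62% of all genes were): Arhgef7, a Rac and Cdc42 exchange factor, fell by 0.70 (SE 0.18, adjusted p = 0.023). Its adjusted p lay between 0.051 and 0.092 without AY replicate 2, 5 or 6 or YY replicate 6. It was 0.14 with pattern as a random block, 0.096 with the replicate block, 0.067 against S198 to S202 alone and 0.44 with summed libraries.

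In YY against in vitro young oocytes, 6 of 88 tested genes of the list were called (6.82%, where 2.48% of all genes were). Arhgdia (0.71 ± 0.17, adjusted p = 0.017), Carmil1 (0.50 ± 0.13, adjusted p = 0.020), Tiam2 (0.59 ± 0.16, adjusted p = 0.029) and Mos (0.26 ± 0.07, adjusted p = 0.036) rose. Carmil1 binds capping protein, Tiam2 is the paralog of Tiam1, and Mos is the kinase that starts the MAPK pathway in oocytes. Diaph3 (−0.52 ± 0.11, adjusted p = 0.0044) and the Arp2/3 subunit gene Arpc1a (−1.15 ± 0.27, adjusted p = 0.013) fell. With pattern as a random block 4 were called, and Tiam2 (adjusted p = 0.076) and Arpc1a (adjusted p = 0.13) were not. Of 19 fits that left out 1 library, Tiam2 lost its call in 6 (adjusted p up to 0.080), Mos in 5 (up to 0.092), Carmil1 in 3 (up to 0.057) and Arpc1a in 1 (0.051). Without in vitro young replicate 3, 10 genes were called, and without replicate 5, 7 or 8, 3 each. Between in vitro and in vivo young oocytes, edgeR called 0 of 88 genes, and 13 had an unadjusted p under 0.05. Another Arp2/3 subunit gene, Arpc1b, chosen after its values were seen, was at 174 ± 34.6 CPM in vitro and 86.3 ± 28.1 in vivo (n = 8 each), a log2 difference of 1.01 ± 0.25 with an adjusted p of 0.10 by edgeR, and was the 1 gene that DESeq2 and limma voom called.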

How the data were processed

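RNA of 45 single oocytes was read. The authors deposited whole-number read counts per gene, not normalized. Per the labels' protocols, libraries used the NEBNext Single Cell/Low Input kit, with 16 cDNA and 8 library PCR cycles. The submitters' processing notes name mm39 as the build, with STAR 2.7.8a and HTSeq 0.11.0 as tools. The treatment of strand and of reads with several matches is unknown here. The reads carry no molecular identifiers, so counting intervals cover counting error only. Groups came from the sample titles, and every pair of libraries within a group differed by more than sampling noise (chi-square at least 2.08 per degree of freedom over 192 pairs).

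Differences came from edgeR 4.0.16 in R 4.3.3 (TMM, filterByExpr with a minimum count of 10, robust quasi-likelihood fit, Benjamini-Hochberg adjustment, called under 0.05). AA, AY and YY shared 1 fit of 8533 genes, and YY and the controls another of 8749. SEs came from the F statistic, and exon lengths from GENCODE M21. The fit was tested on simulated data.

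The members and lists were chosen with earlier results of these data known. All members were named, and of the lists up to 6 called genes per direction with the smallest p and a mean of at least 10 CPM in the higher group, plus the 3 genes most correlated with a member. Fmnl3 and Arpc1b were named outside this rule. A gene that the rule takes is not reported here, and counts include it. Alternatives used RLE size factors, DESeq2 1.42.0, limma 3.58.1 voom with quality weights, other filters (none, or a minimum count of 30), all 45 libraries, a replicate block, genes detected as a covariate, the pattern as a random block, either YY series and leaving out each library. Summing the libraries of each pattern was chosen after seeing the data.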

Additional observations from a re-analysis of the deposited data

Results flagged for a closer look

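Of 27 sets of a member in a group of 4 to 10 libraries, 1 held a library far from the others: Daam1 was at 114 CPM in in vitro young replicate 2, and the nearest other library of that group was at 44.1 CPM, a gap of 0.708 of the group's range. By chance alone, about 1 in 20 sets would be flagged. Without that library, the log2 difference of Daam1 was 0.07 rather than 0.50 between in vitro and in vivo young oocytes, and 0.85 rather than 0.41 between YY and in vitro young oocytes. None of these was called by edgeR.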

How the results depend on the processing

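Counts of called genes are given in the order all genes, then genes of the actin lists, and the cause of each shift was not tested. With pattern as a random block, AA against YY gave 1103 and 12, AY against AA 97 and 2, AY against YY 30 and 0 (5 actin genes at an unadjusted p under 0.05), YY against in vitro young 146 and 4, and in vitro against in vivo young 29 and 1. With each pattern's libraries summed, so that fewer samples were tested, edgeR gave 2 and 0, 1 and 0, and 0 and 0 in the first 3, and 0 and 0 in YY against in vitro young and in vitro against in vivo young, with 1735, 950, 617, 950 and 678 genes at an unadjusted p under 0.05. Against S198 to S202 alone, AA against YY gave 451 and 3, AY against YY 0 actin genes, and YY against in vitro young 99 and 2. With S225 to S231 alone, AY against YY gave 847 and 5, and YY against in vitro young 803 and 15. With voom quality weights, AY against AA gave 848 and 8, YY against in vitro young 558 and 12, and in vitro against in vivo young 35 and 1. DESeq2 gave 404 genes in YY against in vitro young and 44 and 1 in vitro against in vivo. All 45 libraries in 1 fit gave 378 genes, and 29 and 1. The covariate gave 67 and 1, and 0 genes (664 at an unadjusted p under 0.05). With no filter, AY against YY gave 236 genes and in vitro against in vivo young 29.

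The replicate numbers do not pair the libraries. Same-numbered libraries of different groups had correlated deviations of −0.123 to 0.209 over 23 pairs of chimeric oocytes and −0.221 to 0.24 over 24 pairs with controls, and 5 of 29 and 6 of 27 libraries correlated best with their own number. With the replicate block, AY against AA gave 1078 and 11, AY against YY 0 actin genes, YY against in vitro young 115 and 3, and in vitro against in vivo young 6 genes.

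Leaving out each library gave 1961 to 2514 genes and 26 to 35 actin genes in AA against YY, 203 to 607 and 2 to 6 in AY against AA, 84 to 155 and 0 to 1 in AY against YY, 114 to 352 and 3 to 10 in YY against in vitro young, and 0 to 18 and 0 to 0 in vitro against in vivo young.

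The values whose sign turned from that of the main fit were all uncalled. Cfl1 in AA against YY, however, was called at −0.38 with S225 to S231 alone. In AA against YY with S198 to S202 alone, Cfl1 was at 0.14, Daam1 at −0.13 and Fmn2 at 0.024. In AY against YY with S225 to S231 alone, Cfl1 was at −0.0054 and Spire1 at 0.13. In YY against in vitro young, Cfl1 was at −0.041 with voom, −0.014 with no filter, −0.029 with the random block, −0.10 with the replicate block and −0.28 with S198 to S202, where Spire1 was at 0.11. In vitro against in vivo young, Cfl1 was at −0.10 and Fmn2 at 0.014 with summed libraries, and Cdc42bpb at −0.022 with voom. Leaving out libraries moved Cfl1 between −0.041 and 0.074 in vitro against in vivo and between −0.040 and 0.091 in YY against in vitro young, Spire1 between −0.10 and 0.043 in AY against YY, and Tiam1 between −0.014 and 0.10 in vitro against in vivo. Depth limits Cdc42bpb, with 2 to 9 counts in AA, and Spire2, with 1 to 20.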
